A study of Mus musculus with 2 samples.

Results

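The replication-dependent histone genes of the mouse were described in the left cerebral cortex of the newborn animal. They were taken as the protein-coding genes whose symbol starts with Hist1h to Hist4h, and 67 of the 55536 annotated genes met this rule. The number after Hist names the cluster and the letters after the next h name the histone, so that the members fell into 6 H1, 18 H2A, 18 H2B, 12 H3 and 13 H4 genes. Hist1 holds 54 of them on chromosome 13, Hist2 10 on chromosome 3, Hist3 2 on chromosome 11, and Hist4h4 lies alone on chromosome 6. The study has 1 group of 2 male mice of strain B6CASTF1/J, the F1 hybrid of the C57BL/6 and CAST strains, taken on postnatal day 4 with no treatment given in the labels. Each of the 2 tissue samples gave 1 total RNA library from 300 ng of RNA with reduced ribosomal RNA and with ERCC spike-ins, which are synthetic RNAs added in known amounts. The labels give the 2 males different numbers but a single donor identifier, so whether the samples differ as animals or only as tissue samples rests on those numbers. Where animals are named below, the word stands for these 2 samples, and each SD is between the samples. There is no second condition, so no condition is compared, and the p-values given for the 2 libraries cover counting error only. The F1 animals carry an allele of each strain, and the deposited values do not tell the alleles apart.

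DNA in the nucleus is wound around octamers of H2A, H2B, H3 and H4, and H1, the linker histone, binds where the DNA enters and leaves. The genes named here are known to be switched on when a cell copies its DNA in S phase. Their mRNAs are known to end just after a short RNA hairpin, the histone stem-loop, in place of a poly(A) tail, and the stem-loop binding protein Slbp and the U7 particle cut them there. Libraries made from total RNA can hold such mRNAs, whereas selection for poly(A) tails would miss most of them. Replacement histones such as H3.3 and H2A.Z are encoded elsewhere by genes with ordinary polyadenylated mRNAs and are made throughout the cell cycle, also in neurons that no longer divide.

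The stem-loop was found in the annotated mRNA of 44 of the 67 members, and it is shown because it is what defines this class of mRNA. The search asked for a stem of 6 base pairs that starts with GG around a loop of 4 bases that starts with TT, within 100 bases after the stop codon. This window was chosen after the models had been seen, and 16 of the 23 members without a match have fewer than 40 bases after the stop codon, so that there the letters searched for are not in the model. Of the 51 members with at least 40 bases, 44 had it, 21 to 58 bases after the stop codon with a median of 31. The same search matched 100 of 40175 coding transcripts of other genes (0.249%). This is a share of transcripts, whereas the members are counted as genes, so the values are not on the same basis. In these sequences from the GENCODE M21 transcripts, the capitals mark the 2 arms of the stem, and the loop and 5 flanking bases are in lower case.
Hist1h1c: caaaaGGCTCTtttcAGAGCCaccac
Hist2h2aa2: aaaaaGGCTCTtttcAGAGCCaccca
Hist3h2ba: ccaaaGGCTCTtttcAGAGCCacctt
Hist1h3e: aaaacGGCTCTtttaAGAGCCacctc
Hist1h4h: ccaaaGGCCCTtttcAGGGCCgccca
Hist1h4i: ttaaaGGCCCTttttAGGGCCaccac
Hist1h4b: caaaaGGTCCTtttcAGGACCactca
All 33 stem-loops of H1, H2A, H2B and H3 genes had the same stem, with the loop tttc in 26, ttta in 6 and tttt in 1. None of the 11 H4 stem-loops had that stem. Among them, 9 carried the stem of Hist1h4h and Hist1h4i and 2 that of Hist1h4b and Hist1h4j. The letters that differ lie inside the stem.

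Promoter windows from RefSeq (build GRCm38.p6) were matched to 62 members and run from 250 bases before to 50 bases after the start. They were searched on both strands for the letters CCAAT, the core of a site of the NF-Y factor, TATAAA, the TATA box, AAACACA, an element known from H1 promoters, and ATTTGCAT, the octamer of the Pou2f1 factor. None of these motifs holds another. CCAAT was in all 50 windows of H1, H2A, H2B and H3 genes but in 3 of 12 of H4 genes, against 37.4% of the 32851 windows of all genes. AAACACA was in 5 of 6 H1 windows and in 4 of the 56 windows of other types, against 7.18% of all windows. ATTTGCAT was in 7 of 18 H2A and 6 of 16 H2B windows and in none of the 28 windows of H1, H3 and H4 genes, against 1.74%. TATAAA was in 35 of 62 windows, against 13.6%. These counts take either strand and any position, so a TATAAA match need not be a TATA box. Counted from the start, TATAAA lay at position -32 in Hist1h4d, for example, but at -250 in Hist1h4f and at 41 in Hist1h4a. Windows of genes that start back to back overlap, so they are not independent, and a match of letters is not a measured binding site. The 250 bases before the start are shown for a member of 4 types, with these motifs in capitals on either strand, as examples of where the motifs lie. They do not stand for their types, since TATAAA was in 4 of 6 H1 and 4 of 10 H3 windows although the H1 and H3 examples lack it, and the octamer was in 6 of 16 H2B windows.
Hist1h1c: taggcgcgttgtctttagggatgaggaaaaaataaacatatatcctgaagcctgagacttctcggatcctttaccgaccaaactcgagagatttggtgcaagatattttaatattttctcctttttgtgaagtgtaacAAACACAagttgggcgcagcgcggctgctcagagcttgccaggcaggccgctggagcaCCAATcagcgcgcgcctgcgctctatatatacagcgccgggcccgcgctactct
Hist1h2bg: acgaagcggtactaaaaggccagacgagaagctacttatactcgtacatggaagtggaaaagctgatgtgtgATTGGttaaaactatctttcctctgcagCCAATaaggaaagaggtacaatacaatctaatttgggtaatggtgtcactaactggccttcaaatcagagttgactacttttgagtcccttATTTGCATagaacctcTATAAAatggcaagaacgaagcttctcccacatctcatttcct
Hist2h3b: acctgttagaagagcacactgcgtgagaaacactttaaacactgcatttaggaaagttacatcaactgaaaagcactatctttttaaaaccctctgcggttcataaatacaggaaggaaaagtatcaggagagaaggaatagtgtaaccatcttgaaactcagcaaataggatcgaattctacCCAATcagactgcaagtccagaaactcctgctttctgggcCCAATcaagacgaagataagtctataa
Hist1h4k: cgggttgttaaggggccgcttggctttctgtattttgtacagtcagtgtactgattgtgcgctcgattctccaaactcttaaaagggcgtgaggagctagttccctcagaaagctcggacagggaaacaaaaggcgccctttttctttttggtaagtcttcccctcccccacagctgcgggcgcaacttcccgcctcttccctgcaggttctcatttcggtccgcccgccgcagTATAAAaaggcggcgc
They are the upstream part of the windows chr13:23738557-23738856 (plus strand), chr13:23571150-23571449 (plus strand), chr3:96268404-96268703 (plus strand) and chr13:21750504-21750803 (minus strand), in that order. The H1 window holds AAACACA and CCAAT, the H2B window the octamer next to TATAAA and 2 CCAAT, the H3 window 2 CCAAT, and the H4 window TATAAA alone.

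Nearly all of these genes were detected in the gene tables. Levels are given in TPM, which divides reads by transcript length and sets them against all transcripts of the library. Genes that reached 1 TPM in each library were counted as detected. On this count 62 of the 67 members (92.5%, Wilson 95% interval 83.7 to 96.8) were detected, against 59.4% of the 22028 protein-coding genes. The members share sequence, so this interval covers counting error only. Detection of a single member also rests on how reads that fit several members were split, which is described below. A second quantification by the authors, also described below, detected 56 members. The median over all 67 members was 32.9 TPM, and over the 62 detected members 42.9 TPM, beside 17.62 TPM for the detected protein-coding genes. Of the members, 9 had a mean over 100 TPM, 45 lay between 10 and 100 TPM, 8 were detected under 10 TPM and 5 were not detected. These 5 were Hist1h1t, Hist1h2aa and Hist1h2ba, known for expression in testis, and Hist1h2ao and Hist2h3c1. In tissue, such a level does not tell the number of dividing cells apart from the amount of histone mRNA per dividing cell. The libraries held 26897687 and 29511737 expected counts, and the members took 32209 and 33905 of them (0.120% and 0.115% of the counts of annotated genes). Their TPM summed to 3688 in replicate 1 and 3360 in replicate 2.

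**Figure D1:**
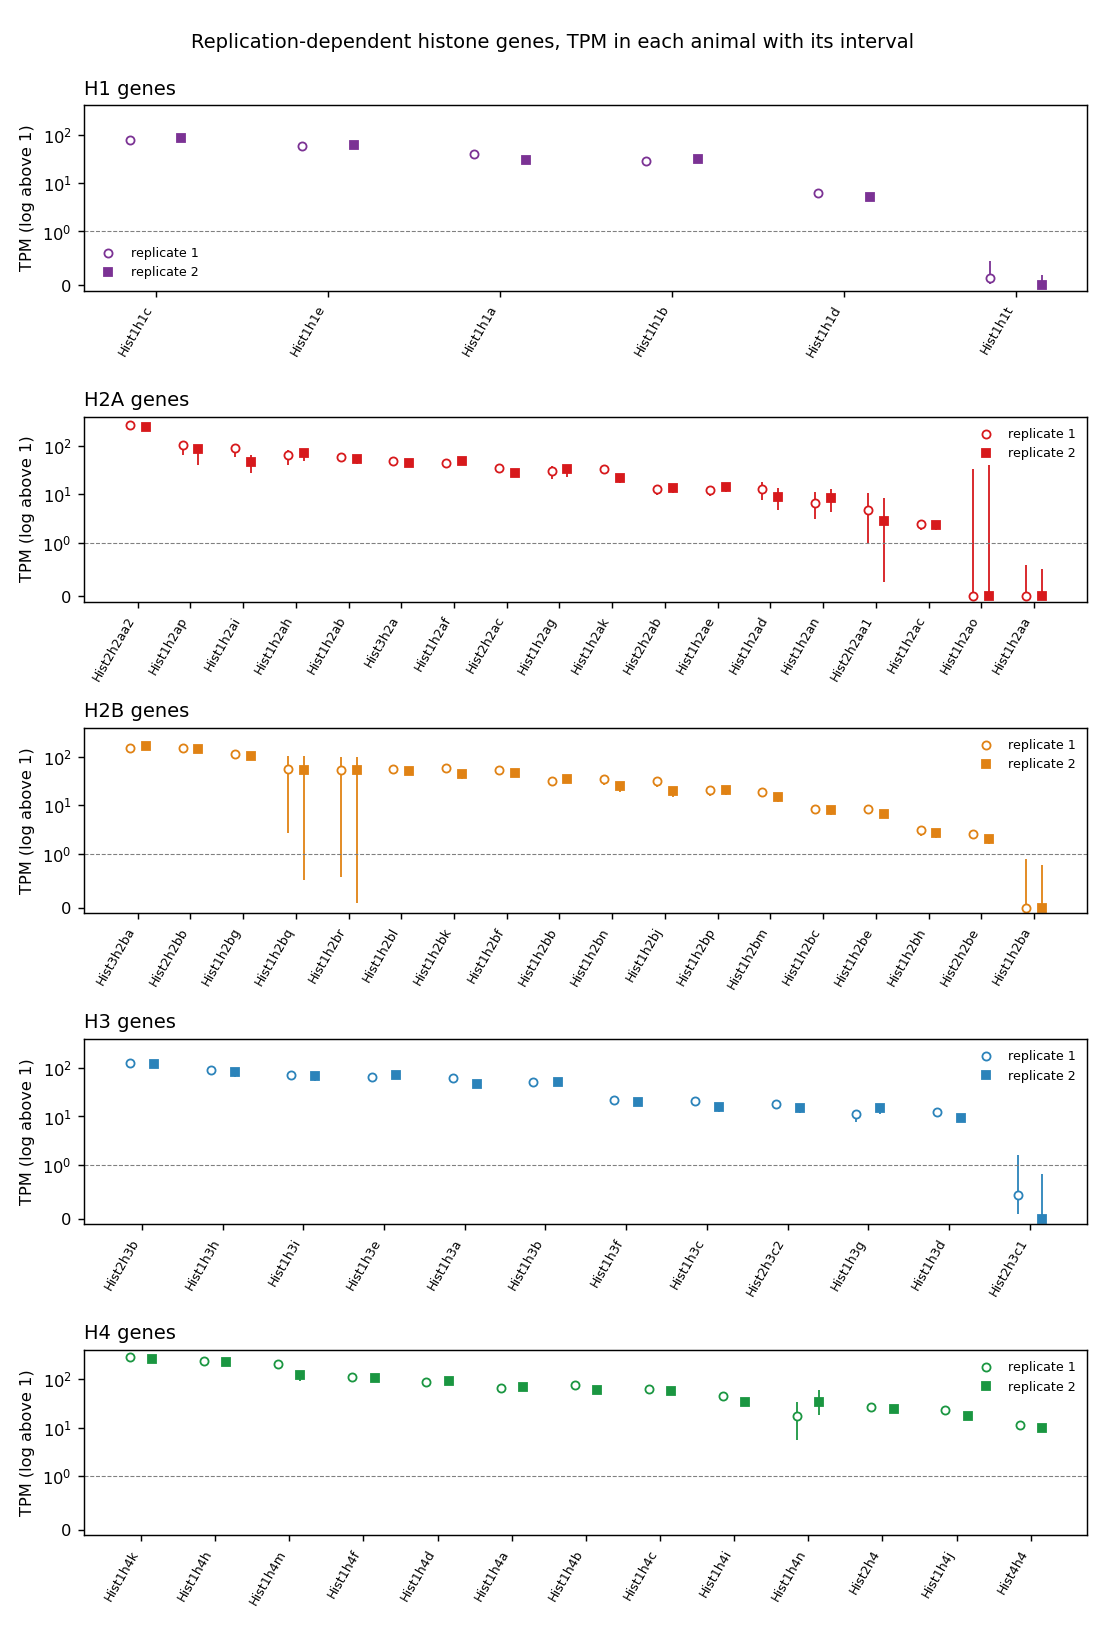
TPM of each member (y axis, linear below 1 and logarithmic above) in replicate 1 (open circles) and replicate 2 (filled squares), with members ordered by mean TPM within each histone type and vertical lines for the deposited TPM interval of each library. All 13 H4 genes lie above the dashed line at 1 TPM, while Hist1h2bq, Hist1h2br and Hist1h2ao have intervals that reach from near 0 to 33.4 TPM or more.

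H4 genes had the highest summed level of the 5 types in the gene tables. Their sum was 1249.53 TPM in replicate 1 and 1108.33 TPM in replicate 2, or 1179 ± 99.8 (SD, n = 2), which was 33.4% of the members' TPM. The H2B genes summed to 824 ± 37.8 TPM, the H2A genes to 775 ± 71.5 TPM, the H3 genes to 535 ± 23.3 TPM and the H1 genes to 211 ± 0.771 TPM. The H2A and H2B sums overlapped between the animals, while H4 was highest and H1 lowest in both. Per gene, H4 stood at 90.7 TPM and the other types between 35.1 and 45.8 TPM. By expected counts, which are not divided by length, H4 held 28.8 ± 0.583%, H2A 20.6 ± 0.550%, H2B 19.0 ± 0.112%, H1 17.0 ± 0.934% and H3 14.6 ± 0.0877% of the members' reads. This order did not hold in the second set of tables that the authors deposited, called the other quantification here, which was made from the reads with no alignment file. There H2A was highest with 1321 ± 107 TPM, then H4 with 903 ± 11.4 TPM, H2B with 855 ± 22.3 TPM, H3 with 804 ± 22.5 TPM and H1 with 273 ± 2.89 TPM.

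**Figure D2:**
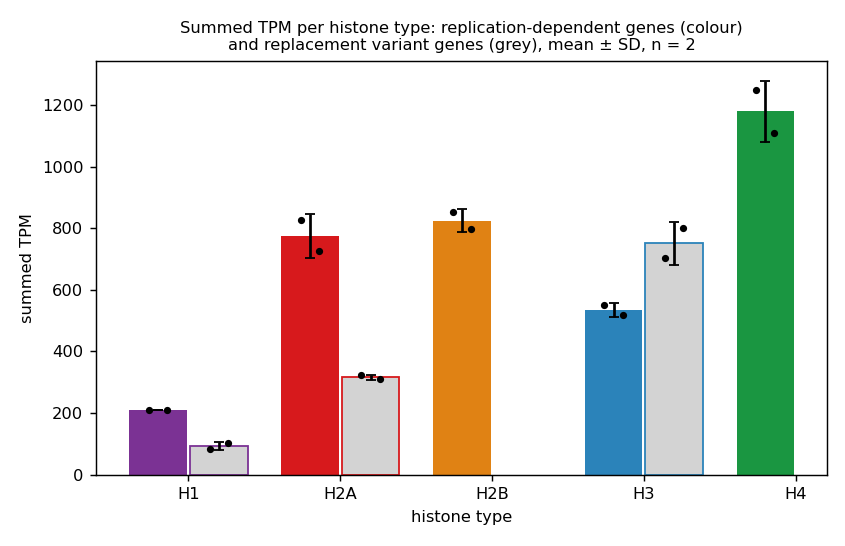
Summed TPM (y axis, from 0) of the replication-dependent genes (coloured bars) and of the replacement variant genes (grey bars) of each histone type, as mean ± SD with a point for each of the 2 samples. H4 is the tallest bar at 1179 TPM, and H3 is the type in which the grey bar is above the coloured bar.

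All 13 H4 genes were detected in the gene tables, and they encode a single protein. Their coding sequences come in 12 versions, and the protein of 103 residues is identical in all 13. Hist1h4k (ENSMUSG00000064288.4, chr13:21750194-21750505, minus strand) was the highest member of all in the gene tables, with 281.27 TPM in replicate 1 and 257.07 TPM in replicate 2. Hist1h4h (ENSMUSG00000060981.7, chr13:23531050-23531519, plus strand) had 234.96 and 225.33 TPM. In these tables both genes were high in both animals, and their ranges did not overlap. Hist1h4m had 204.23 and 124.24 TPM, Hist1h4f 111.95 and 104.76 TPM, and Hist1h4d 88.69 and 92.07 TPM. Hist1h4m thus varied more between the animals than the other 4, a point taken up with its copy Hist1h4n in the comparison of the libraries. The other 8 H4 genes had means between 10.6 and 67.9 TPM, and the lowest was Hist4h4 (chr6:136801553-136804415), known to give polyadenylated mRNA as well, with 11.33 and 9.88 TPM. Hist1h4i, another gene known for such mRNA, had 44.62 and 34.55 TPM. In the other quantification 10 of the 13 reached 1 TPM in each library. Hist1h4n was listed at 0 there, Hist1h4d stood at 0.882 TPM in replicate 1 and Hist2h4 at 0.890 TPM in replicate 2. Hist1h4f had 2.75 and 8.72 TPM there and Hist1h4k 1.94 and 5.30 TPM, while Hist1h4h had 477 and 588 TPM.

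In the gene tables the H2B genes were led by members of 3 clusters. Hist3h2ba (ENSMUSG00000056895.4, chr11:58948920-58949533) had 149.63 TPM in replicate 1 and 166.18 TPM in replicate 2. Hist2h2bb (ENSMUSG00000105827.1, chr3:96269752-96270132) had 152.84 and 142.47 TPM, and Hist1h2bg (ENSMUSG00000058385.8, chr13:23571396-23572013) 112.27 and 106.01 TPM. The first pair of genes overlapped in level between the animals, and Hist1h2bg lay below both. This order did not hold in the other quantification. There Hist3h2ba had 158 and 177 TPM, Hist1h2bg 88.7 and 71.0 TPM and Hist2h2bb 61.1 and 61.1 TPM. The Hist1 genes Hist1h2bf (154 and 143 TPM), Hist1h2bj (114 and 89.3 TPM) and Hist1h2bb (98.9 and 106 TPM) lay above Hist1h2bg and Hist2h2bb there. Hist1h2bc, known to be made outside S phase as well, had 8.37 and 7.98 TPM, and Hist2h2be, known from olfactory sensory neurons, was the lowest detected member with 2.59 and 2 TPM. The other 10 detected H2B genes outside the copies named next had means between 2.89 and 53.3 TPM. The testis gene Hist1h2ba had no counts in either library of the gene tables, where 3 counts would be 0.618 and 0.546 TPM. The other quantification gave it 0 in replicate 1 and 12.1 estimated counts, or 7.75 TPM, in replicate 2. Values of Hist1h2bq (55.08 and 54 TPM) and Hist1h2br (54.18 and 53.29 TPM) are uncertain, since their coding sequences are identical and the deposited intervals ran from 2.69 to 104.54 and from 0.577 to 101.14 TPM in replicate 1. Their sum was 109.26 and 107.29 TPM in the gene tables but 0.617 and 0.760 TPM in the other quantification, the second set of tables, so the sum is uncertain as well.

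The H2A genes held the second highest member. Hist2h2aa2 (ENSMUSG00000063954.7, chr3:96239749-96240276) had 268.70 and 239.45 TPM, while Hist2h2aa1 (chr3:96245497-96246082), whose coding sequence is identical, had 4.74 and 2.76 TPM. The other quantification gave the reads of this pair the other way, with 485 and 442 TPM for Hist2h2aa1 and 0 for Hist2h2aa2, so the pair is better read as a sum. This sum was 273.44 and 242.21 TPM in the gene tables but 485 and 442 TPM in the other quantification, so it is uncertain as well. Hist1h2ap (104.01 and 86.30 TPM) and Hist1h2ao (0 and 0.01 TPM) are also copies in their coding part. The intervals of Hist1h2ao reached 33.4 and 39.1 TPM, so its absence from the detected members does not show that it was silent. Hist1h2ai followed with 88.87 and 47.11 TPM, and Hist3h2a, known for polyadenylated mRNA, had 47.46 and 44.91 TPM. The other 10 detected H2A genes had means between 7.34 and 67.2 TPM. The lowest detected H2A member was Hist1h2ac with 2.38 and 2.35 TPM, and the testis gene Hist1h2aa had no counts in the gene tables, with 3 counts worth 0.605 and 0.535 TPM. The other quantification gave Hist1h2aa 1.02 estimated counts in replicate 1 and 0 in replicate 2.

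Among the H3 genes, Hist2h3b (ENSMUSG00000074403.2, chr3:96268654-96269141) was highest with 124.96 and 120.56 TPM. Hist1h3h (chr13:21717659-21718069) had 89.88 and 83.14 TPM. These values did not overlap, and the 9 other detected H3 genes had means between 10.7 and 70.6 TPM. Hist1h3d was the lowest of them with 12.13 and 9.22 TPM. The 12 H3 genes encode 2 proteins, the larger group of 8 genes being identical. Hist2h3c1, not detected at 0.45 and 0 TPM, has the coding sequence of Hist2h3c2, which had 18.10 and 15.11 TPM.

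The H1 genes encode 6 different linker histones, and the median H1 gene shared 3.73% of its 31-base words with other genes, the lowest of the 5 types. Hist1h1c (ENSMUSG00000036181.2, chr13:23738808-23740367) had 77.10 and 83.71 TPM and took 1918 and 2356 expected counts, more on average than any other member. Hist1h1e had 58.67 and 60.66 TPM, Hist1h1a 39.70 and 29.76 TPM, Hist1h1b 28.27 and 31.84 TPM, and Hist1h1d 6.2 and 5.2 TPM. Hist1h1c and Hist1h1e were highest in both animals, and Hist1h1a and Hist1h1b changed places between them. The testis gene Hist1h1t had 2 expected counts in replicate 1 and 0 in replicate 2. The model of Hist1h1d is 7425 bases long, the longest of all members, and its TPM rests on that length. With 774 and 734 expected counts it ranked 15 among the members by mean count but 58 by mean TPM. Where these reads lie within the model is not known, so its low TPM need not mean few reads.

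The Hist1 cluster held 2692 ± 198 TPM (76.4%), Hist2 618 ± 42.4 TPM, Hist3 204 ± 9.90 TPM and Hist4 10.6 ± 1.03 TPM. The genes of Hist1 lie in 4 runs when split at gaps over 100 kb. The run chr13:21715763-21837530 held 18 genes and 1094 ± 135 TPM, the run chr13:22035164-22043676 5 genes and 216 ± 17.6 TPM, and the run chr13:23531050-23764406 29 genes and 1382 ± 45.8 TPM. The last run, chr13:23933773-23934851, holds the testis genes Hist1h2ba and Hist1h2aa alone, and neither had a count in the gene tables. High and low genes stood beside each other within a run. In the gene tables the H4 genes Hist1h4k and Hist1h4h were the highest of the first and the third run. The other quantification put Hist1h4k at a mean of 3.62 TPM.

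**Figure D3:**
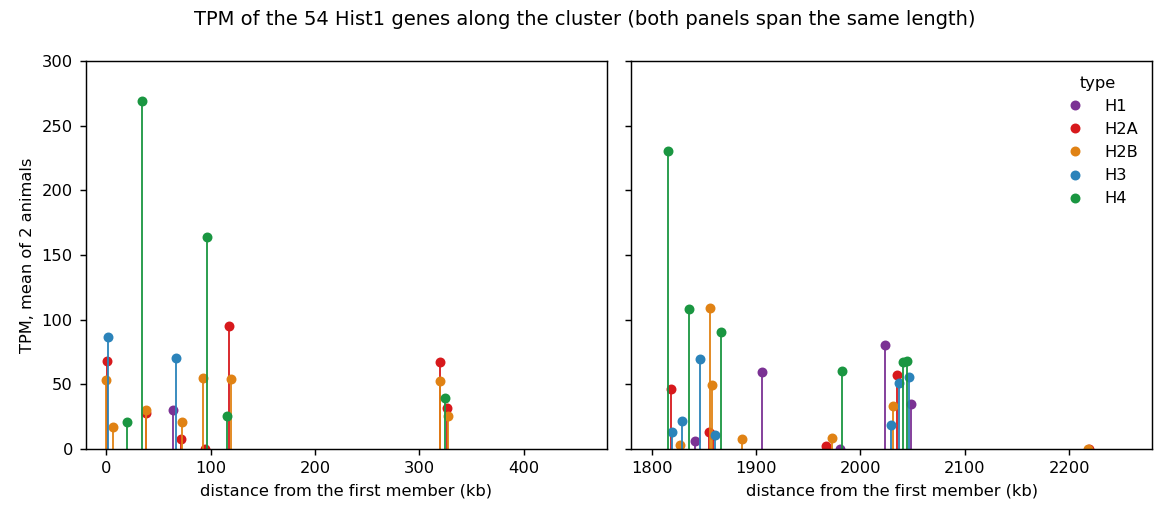
Mean TPM of the 2 samples (y axis) for the 54 Hist1 genes against their distance in kb from the first member along the chromosome, with a colour for each histone type and panels of equal length on either side of a long gap. All values are from the gene tables. The tallest points are the H4 genes Hist1h4k at 269 TPM in the left panel and Hist1h4h at 230 TPM in the right panel. The last pair of genes on the right lies at 0.

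Among the members, 13 pairs start back to back within 1000 bases, with 176 to 660 bases between the starts. Of these, 12 join an H2A and an H2B gene, whose products form a dimer, and Hist1h2bh faces the H3 gene Hist1h3f. Both partners were detected in 11 pairs, and in 5 of these the means were within 2-fold of each other. Hist1h2ak and Hist1h2bn, for example, stood at 27.7 ± 8.56 and 29.7 ± 6.58 TPM. In 6 pairs the partners differed by more than that. Hist1h2bg stood at 109 ± 4.43 TPM and its partner Hist1h2ae at 13.2 ± 1.31 TPM, and Hist2h2ac at 31.6 ± 5.43 TPM against 2.30 ± 0.417 TPM for Hist2h2be, the widest gap with 13.8-fold. These gaps rest on the gene tables. Of the 5 pairs within 2-fold there, 4 differed by more than 2-fold in the other quantification, which gave Hist1h2ak 49.0 and Hist1h2bn 16.4 TPM. Of the 6 wider pairs, 2 were within 2-fold in the other quantification, which gave Hist1h2ae 72.4 TPM and Hist1h2bg 79.9 TPM. In all, 3 of the 11 pairs were within 2-fold there.

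Shared sequence limits what a value for a single member means. Reads that fit several genes are split between them in the deposited tables, which shows as counts that are not whole, taken as more than 0.01 from a whole number. Such counts were seen in 59 of 67 members and in 91.9% of the detected members, against 15.1% of the detected protein-coding genes. The median member had 58.5% of its 31-base words in another annotated gene, and 40 members had more than 50% there. The 8 members with whole counts were Hist1h1a, Hist1h1b, Hist2h4, Hist2h2be and Hist4h4, all detected, and the 3 testis genes. Moreover, 24 members overlap another annotated gene. In 21 of them a gene on the opposite strand does so, most often a predicted miRNA model over an H2A gene, and these opposite genes stood at 1.16 TPM or less. In 7 a gene on the same strand does so, among them Hist1h1e and Hist1h2be, which share 496 bases. Whether the counting used strand is not given in the sources used here, so reads of overlapping genes cannot be told apart.

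The quantifications differed by member more than they did over other genes. Of the 60 members above 0 in both, 33 (55.0%) were within 2-fold, against 91.4% of 13057 detected protein-coding genes. The other quantification also ran higher for most genes of the lists described below. Among the detected genes of these lists, only H2afj, Hes5 and Hba-a2 were lower there. Mki67, for example, stood at 7.42 TPM in the gene tables and 9.92 TPM there, and Pcna at 39.9 and 77.5 TPM. The folds of the members were counted from equal TPM and not corrected for this. The other quantification was over 2-fold higher for 16 members and over 2-fold lower for 11, 7 of them over 10-fold, and it listed Hist2h2aa2 and Hist1h4n at 0. H4 genes made up 8 of the 13 detected members that were lower there by this measure or at 0. Hist1h4k stood at 269 TPM in the gene tables and at 3.62 TPM in the other quantification, with 1020 and 1055 expected counts against 2 and 6 estimated counts. Hist1h4d, which shares only 14.7% of its words with other genes, stood at 90.4 and 1.76 TPM, with 1569 and 1843 expected counts against 10 and 33 estimated counts. Hist2h4, with whole counts and 2.31% of its words shared, stood at 25.3 and 1.07 TPM, so this difference was also present in members with little shared sequence. In the other direction, Hist1h4h stood at 230 and 533 TPM, Hist1h2ad at 10.8 and 234 TPM and Hist1h2bj at 25.7 and 102 TPM. Other members had nearly equal TPM in both, with Hist1h1c at 80.4 and 81.4 TPM and Hist3h2a at 46.2 and 43.5 TPM. They thus did not share the rise seen for most listed genes. The tables also assume different effective lengths, the length over which a read can start, with 213 bases for Hist1h4k in the gene table and 71.8 bases in the other quantification, against 1461 and 1213 bases for Hist1h1c. For a short gene the same read thus gives a higher TPM in the other quantification. What part this or the sharing of reads has in the differences was not tested.

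**Figure D4:**
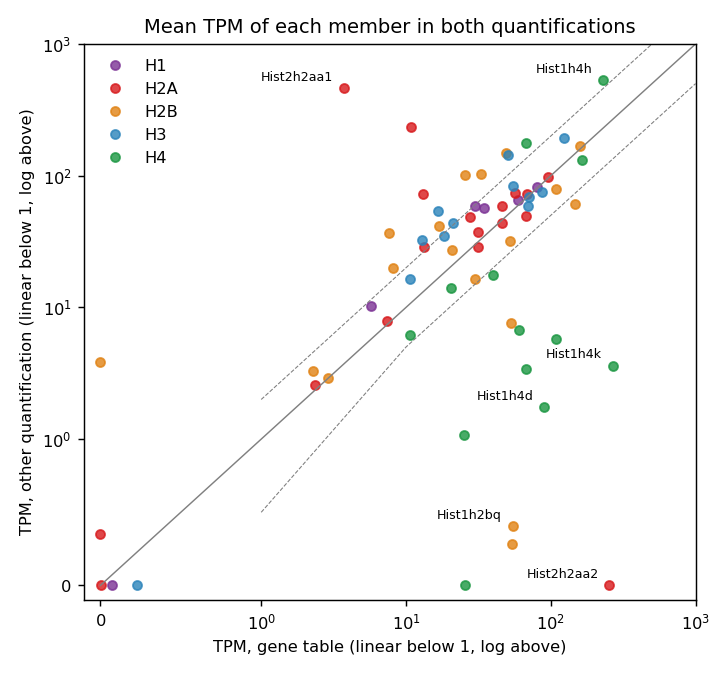
Mean TPM of each member in the gene table (x axis) and in the other quantification (y axis), both linear below 1 and logarithmic above, coloured by histone type, with a solid line for equal values and dashed lines for 2-fold. Most H1 and H3 points lie near or above the solid line, while Hist1h4k, Hist1h4d and 6 other H4 points lie below the lower dashed line or at 0.

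Several annotated models run far past the stem-loop, which bears on TPM because it is divided by model length. Member lengths ran from 312 to 7425 bases with a median of 528, and in 11 members the model is the coding part alone, Hist1h4k and Hist2h2bb among them. Of the 44 models with a stem-loop, 21 ended within 60 bases of it, 22 ran over 100 bases past it and 18 over 300 bases. The model of Hist1h1c ran 840 bases past its stem-loop, that of Hist3h2a 1643 bases and that of Hist4h4 2445 bases. Coding models with a stem-loop in their last 200 bases held 47.7 ± 0.898% of the TPM of the members' coding transcripts in the alignment-based tables, and 63.7% in the other quantification. The rest is not all in long models. It includes models with too few bases after the stop codon to hold a match, such as Hist1h4k at 269 TPM and Hist2h2bb at 148 TPM in the gene tables. Both percentages are shares of annotated models, and the tables do not show where the reads lie within a model. The ranks also depended on the measure. Of the 12 members highest by TPM, 8 were also among the 12 highest by expected counts and 5 among the 12 highest in the other quantification. The members highest by counts were Hist1h1c, Hist1h1e, Hist2h2aa2, Hist3h2a and Hist1h4d.

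Genes for replacement histones were expressed beside the replication-dependent genes, and for H3 they held the larger share. H3f3a and H3f3b, which both encode H3.3, had 440.10 and 452.67 TPM and 255.03 and 342.12 TPM. With Cenpa, the H3 variant of centromeres (6.61 ± 0.382 TPM), they made up 58.4 ± 3.32% of all H3 TPM and 75.2 ± 2.85% of the H3 expected counts. Each of H3f3a and H3f3b lay above every H3 member in both animals. For H2A the replacement genes held 29.0 ± 1.34% of the TPM and 52.2 ± 1.29% of the counts. H2afz, which encodes H2A.Z, led them with 110 ± 4.02 TPM. The macroH2A genes H2afy2 (62.1 ± 1.25 TPM) and H2afy (58.0 ± 1.23 TPM), the DNA damage variant H2afx (40.5 ± 1.14 TPM), H2afj (23.7 ± 2.98 TPM) and H2afv (21.9 ± 0.481 TPM) followed. For H1 the share was 30.5 ± 2.93% of the TPM and 31.6 ± 3.09% of the counts, from H1f0 (47.7 ± 7.55 TPM) and H1fx (44.8 ± 5.71 TPM). The germ cell genes H1foo, H1fnt and H2afb1 had no counts, and Hils1 had 3 and 0. Of the 17 listed symbols 16 were matched (H3f3c was not), and 11 were detected. The matched symbols include the testis gene Hist1h1t, which is also a member. It was not detected, and it was left out of the replacement side of the shares. The replacement shares of H3 were between 56.0% and 77.2% in each library by TPM, posterior mean TPM, the other quantification and expected counts.

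Genes that act on histone mRNA and histone supply were nearly all present. Of 31 listed symbols 29 were matched and 27 detected, with a median of 18.5 TPM over the 29. Slbp, the stem-loop binding protein, had 19.57 and 13.42 TPM, and Npat, the coactivator of histone promoters in S phase, 7.71 and 9.26 TPM. Lsm10 and Lsm11, proteins of the U7 particle, had 11.94 and 8.99 TPM and 46.68 and 43.30 TPM. The highest were Atrx (133 ± 7.05 TPM) and Hira (67.8 ± 1.30 TPM), which help to place H3.3, Srrt (110 ± 3.59 TPM) of the cap-binding machinery, and Nasp (59.96 ± 7.22 TPM), a histone chaperone. The lowest was Zfp473, known to bind the processing complex, with 0.42 and 0.47 TPM. All 24 listed genes of S phase and mitosis were detected with a median of 6.63 TPM, below the members' 32.9 TPM. Pcna (39.9 ± 1.09 TPM), Mcm7 (18.0 ± 0.728 TPM), the ribonucleotide reductase gene Rrm2 (14.8 ± 0.290 TPM) and Rrm1 (13.4 ± 1.39 TPM) led them, and Bub1 was lowest with 2.21 ± 0.742 TPM. Of all 24 of these genes, Pcna alone lay above the members' median.

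The tissue label was checked on markers of cortical cells. All 6 markers of cortical excitatory neurons were detected, with sums of 676.63 and 594.27 TPM. Of these 6 genes, 5 were called different between the libraries, 2 higher and 3 lower in replicate 2, by the test described in the next paragraph. Of 4 interneuron markers 3 were called, all higher in replicate 2, with log2 ratios of 0.61 for Gad1, 0.77 for Gad2 and 0.25 for Sst. Of 6 markers of radial glia and progenitors 3 were called higher and 1 lower, with 1.92 for Eomes and 0.80 for Pax6. All 4 astrocyte markers were called higher. Of 3 oligodendrocyte lineage markers 1 was called higher and 1 lower, of 2 microglia markers 0 were called, and of 2 endothelium markers 1 was called lower. Over all genes tested 26.7% were called. Some markers of other tissue also differed between the libraries. The 4 red blood cell genes summed to 213.60 and 453.86 TPM and all 4 were called higher in replicate 2. The choroid plexus markers summed to 1.23 and 33.08 TPM, and the olfactory bulb markers to 5.83 and 31.11 TPM. Folr1 and Tbx21 did not reach 1 TPM in each library. Tbx21 had 0.1 TPM in replicate 1 and 1.8 TPM in replicate 2, and it was called higher. The part of these markers in the differences between the libraries given next was not tested.

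The libraries differed at the histone genes about as often as at other genes. Each gene with 10 or more counts in total was compared between the libraries with a two-sided exact binomial test on rounded expected counts scaled with TMM factors, with Benjamini-Hochberg adjustment over all 20385 such genes and a threshold of 0.05. The comparison is of these libraries alone and says nothing of a condition. Of the 63 members tested, 16 were called (25.4%), against 26.7% of all genes tested. Among them 6 were higher in replicate 2, where 13.9% of all genes were, and 10 were lower, where 12.7% were. The median log2 ratio of replicate 2 over replicate 1 was -0.06 over the members, with 24 above and 39 below 0, and -0.003 over all genes tested. More members were called lower than higher under each of the 4 scalings of these counts. DESeq2 size factors called 7 members higher and 10 lower, where 58.2% of all called genes were higher. Total count scaling called 3 higher and 16 lower, where 41.9% of all called genes were higher. ERCC scaling, which shifted the median of all genes to -0.15, called 1 higher and 28 lower, where 10.5% of all called genes were higher. The split went the other way in the other quantification, a different table of counts, with 10 higher and 4 lower. There 56.6% of all called genes were higher. Of the 16 calls, 13 remained with total count scaling, 11 with ERCC scaling and 6 in the other quantification, each in the same direction.

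Members called higher in replicate 2 were Hist1h1c, Hist1h1e, Hist1h3e, Hist1h4d, Hist3h2ba and Hist1h4n, and apart from Hist1h4n their log2 ratios lay between 0.12 and 0.23. Members called lower were Hist1h1a, Hist1h2ai, Hist1h2ak, Hist1h2bj, Hist1h2bk, Hist1h3a, Hist1h4i, Hist1h4j, Hist1h4m and Hist2h3c1. The H1 genes went both ways. Hist1h1c had a log2 ratio of 0.19 (SE 0.0444, adjusted p = 1.41e-04) and Hist1h1a one of -0.34 (SE 0.102, adjusted p = 0.00523) in the exact binomial test with Benjamini-Hochberg adjustment. The standard errors come from the counts alone.

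A ratio of 1.5-fold or more was reached by 4 of the called members, or 6.35% of the 63 tested, against 5.57% of all genes tested. Hist1h2ai, with 445 and 267 expected counts, had a log2 ratio of -0.84 (SE 0.112, adjusted p = 7.61e-13, exact binomial test), and 92.0% of its words are shared. Hist1h4m had a log2 ratio of -0.64 (SE 0.0696) with 1054 and 725 expected counts, and Hist1h4n, its copy in coding sequence, had one of 1.05 (SE 0.176) with 97.2 and 218 expected counts. The pair went in opposite directions, and its sum of 1151 and 943 expected counts gave a log2 ratio of -0.39. Hist2h3c1 had 13.2 and 0 expected counts, and the sum with its copy Hist2h3c2 was 297 and 268 expected counts. Thus 3 of these 4 members share their coding sequence with another member. In the other quantification the log2 ratio of Hist1h4m was -0.19, which did not pass the test (adjusted p = 0.341, exact binomial test), and Hist1h4n was listed at 0.

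**Figure D5:**
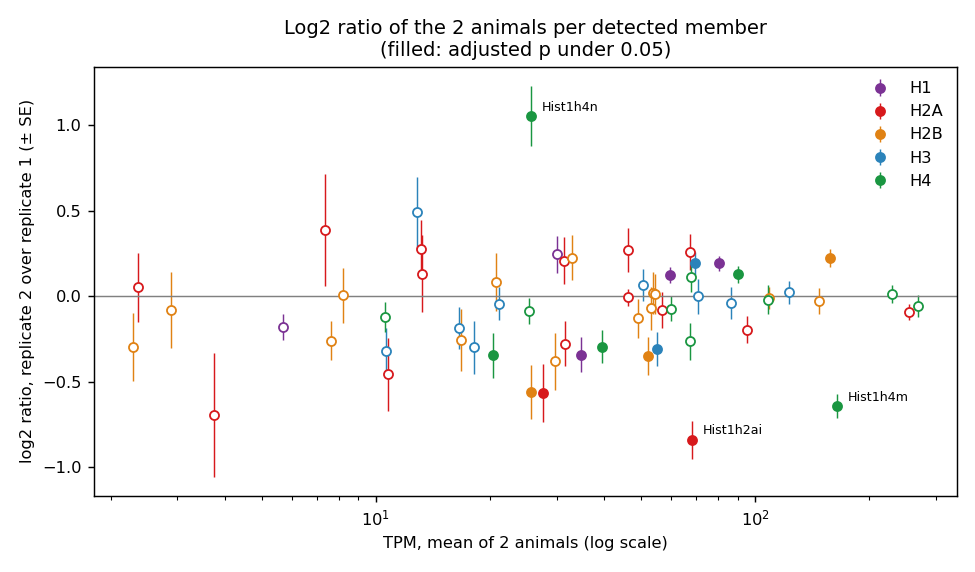
Log2 ratio of replicate 2 over replicate 1 from expected counts (y axis, bars are the standard error from the counts) against mean TPM (x axis, log scale) for the 62 detected members, coloured by type, with filled points for an adjusted p under 0.05. Most points lie near 0 on either side, and Hist1h4n at 1.05, Hist1h2ai at -0.84 and Hist1h4m at -0.64 stand farthest among the called members.

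The same test gave calls among the related genes. They are read against the 26.7% called among all genes tested. In the replacement list 4 of 11 tested genes were called, all higher in replicate 2 with TMM scaling. They were H3f3b with a log2 ratio of 0.52, H1f0 with 0.40, H1fx with 0.33 and H3f3a with 0.07, the last smaller than the shift under ERCC scaling. In the list of histone mRNA factors 9 of 29 were called, 3 higher and 6 lower. Slbp was among the lower ones with a log2 ratio of -0.34, and Chaf1b, a subunit of the chromatin assembly factor, was higher with 0.78. Of the 3 subunits of the NF-Y factor, Nfya was lower with -0.83, Nfyc higher with 0.20, and Nfyb, at -0.07, was not called. In the list of S phase and mitosis genes 3 of 24 were called, with log2 ratios of 0.41 for Cdk1, 0.26 for Mcm4 and -0.19 for Top2a.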

How the data were processed

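Total RNA of 2 left cerebral cortex samples was measured, with 1 library each. The authors deposited expected counts, TPM and posterior mean TPM per gene, with the bounds of a TPM interval (a signal never below 0, whose level is not given), and transcript tables of expected counts and TPM, per the file headers. Estimated counts and TPM from a second, read-based quantification were also deposited. The deposited notes name mm10 and GENCODE M21. Not given in the sources used here are the aligner, the quantifiers, their versions and the use of strand.

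Members, lists and tests were chosen with earlier results of these data known. All 55536 gene identifiers matched M21. Spike-ins took 0.323% and 0.351% of the expected counts, and these and numeric rows (6 and 2 counts) stayed out of library sizes. Reads carry no molecular identifiers named here, so intervals and the limit of 3 counts cover counting error only. Counts were rounded to whole numbers for the binomial test, scaled with TMM factors (edgeR 4.0.16, R 4.3.3) and a prior count of 0.5, and DESeq2 1.42.0 gave alternative size factors. Python 3.11.15, SciPy 1.17.1 and pandas 2.3.3 did the rest. The test was also run on simulated counts, but no result of this is given here, so nothing is concluded from it. With 2 libraries of a single group, no model with residual degrees of freedom was fitted. Named in full were the 12 highest members, the highest and lowest detected of each type, the highest of each cluster, called members at 1.5-fold or more, known polyadenylated or testis genes and the replacement genes, and 4 highest and the lowest of other lists. Members shown for other reasons, and the runs and pairs along the clusters, were chosen after their values were seen. Hist1h2bd was not matched by the rule. Alternatives were other quantifications, thresholds, scalings and each library alone.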

Additional observations from a re-analysis of the deposited data

Results flagged for a closer look

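Among histone gene models outside the rule, 2 processed pseudogenes took reads above the limit of 3 counts that a count of 0 allows. Hist3h2bb-ps had 222 expected counts in replicate 1 and 325.39 in replicate 2, or 35.62 and 46.15 TPM, and 128 TPM in the other quantification. Hist1h2al had 202.95 expected counts in replicate 1 and 261.29 in replicate 2, or 49.67 and 56.52 TPM, but was listed at 0 in the other quantification. The unprocessed pseudogene Hist1h2aj had no counts. Whether the reads of the processed pseudogenes come from these models or from members of like sequence was not tested.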

How the results depend on the processing

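The number of detected members lay between 56 and 63 with other thresholds, posterior mean TPM, the other quantification or each library alone, and was 5 when the members whose counts are not whole were left out. In the other quantification the sums were 273 TPM for H1, 1321 for H2A, 804 for H3, 903 for H4, 3096 for Hist1, 842 for Hist2 and 6.22 for Hist4, each moved by more than the SD between the samples, whereas H2B and Hist3 moved by less. The sums were not corrected for the higher TPM of most listed genes in the other quantification. Posterior mean TPM gave 203 TPM for H1. The 10 highest members held 47.1% of the members' TPM, 46.8% by posterior mean TPM and 55.4% in the other quantification. The replacement share was 26.0% for H2A and 61.8% for H3 in the other quantification, and 52.2% and 75.2% by expected counts. The share of coding TPM in models with a stem-loop in the last 200 bases was 63.7% in the other quantification. The count of members called between the libraries was 29 with ERCC scaling, where 34.4% of all genes tested were called. It was 14 to 19 in the other settings, where 17.6% to 30.6% were called. The members' median log2 ratio was 0.0240 in the other quantification, above 0, and -0.20 to -0.04 in the other settings. The log2 ratio of Hist1h4m did not pass the test in the other quantification. The causes were not tested. No paired analysis was possible because all samples belong to a single group. Each detected member had at least 25.9 expected counts in each library, and undetected members with 0 counts are limited by depth.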
